A study of Mus musculus with 6 samples.

Results

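The 9 genes that encode regulatory proteins of the thin filament were followed in mouse hearts: Tnni3 and Tnni1 for troponin I, Tnnt2 and Tnnt1 for troponin T, Tnnc1 for troponin C, and Tpm1, Tpm2, Tpm3 and Tpm4 for tropomyosin. They were taken by symbol from a table of 54532 genes, which held all 9. The hearts came from Ythdc1-CKO mice, in which Ythdc1 is conditionally knocked out (CKO, 3 libraries), and from Ythdc1flox/flox mice, which carry the floxed alleles (flox control, 3 libraries). All mice received normal chow for 15 days, and each library is an independent biological replicate per the labels, which give no age, sex, Cre driver or deleted exon. Ythdc1 encodes a nuclear protein that binds N6-methyladenosine (m6A) in RNA. The comparison asks how heart transcripts differ when this gene is conditionally knocked out, and the protein was not measured.

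In the thin filament, tropomyosin lies along actin and covers the sites that myosin binds. Troponin T anchors the troponin complex to tropomyosin, troponin I holds the filament in the blocked state, and troponin C binds calcium and releases that block. Each protein comes from several paralogous genes: in the mouse heart the slow skeletal troponin I gene Tnni1 is the fetal form and gives way to the cardiac gene Tnni3 around birth, Tnnt2 is the cardiac and Tnnt1 the slow skeletal troponin T gene, and Tpm1 is the main tropomyosin gene of the adult heart. Isoform here means such a paralogous gene. The splice forms within a gene, which are many for Tnnt2 and Tpm1, are summed in its value.

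Gene-assigned reads numbered 17434296 to 19360428 per CKO library and 17748541 to 19011019 per flox control library, and the 9 genes took 1.46% to 1.86% of them in CKO hearts, against 1.78% to 2.03% in flox controls. Ythdc1 measured 2.39, 2.57 and 2.34 FPKM in CKO hearts, against 4.31, 3.64 and 4.10 FPKM in flox controls (limma adjusted p = 0.015). That call was lost without CKO 3 (0.0535), flox control 1 (0.0707) or flox control 3 (0.0637), and after rescaling to TPM (0.0944) or to the same sum over the genes tested (0.0903). CKO 3 differed in sex-linked transcripts, with 4037 Xist reads against 0 to 5 in the other libraries. The Y-linked gene Ddx3y measured 0.350 FPKM in CKO 3, against 10.8 and 14.8 FPKM in CKO 1 and CKO 2. In flox controls it measured 13.6 to 15.9 FPKM. This is the pattern of a female in CKO 3 and of males elsewhere, so sex was not balanced between the groups. The part of CKO 3 in any result was not tested beyond leaving it out. The heart label was checked on 8 cardiomyocyte markers, none at 0, whose summed FPKM was 8850 to 12179 in CKO and 10832 to 11916 in flox control libraries. In bulk tissue, fewer cells of a type and less RNA per cell cannot be told apart.

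FPKM, the unit of the deposited values, are fragments per kilobase of gene, scaled by 1 factor per library. That factor was not the library's own number of reads. It equalled the geometric mean of the libraries' read totals times a size factor. The size factor is a library's median ratio to each gene's geometric mean, over genes with reads in every library. Of the 12144 genes that reached an average of 1 FPKM, 11.2% differed between the groups at a limma adjusted p under 0.05, 5.69% higher and 5.49% lower in CKO hearts. All 9 troponin and tropomyosin genes were among those tested, and each averaged above 1 FPKM in both groups. Of these, 4 passed the test: Tpm2 and Tnni1 rose, and Tnni3 and Tnnt1 fell. The other 5 did not pass. The groups did not overlap in 5 of 9, the called genes and Tpm1, where 34.3% of all genes tested did not overlap. The median absolute log2 fold change was 0.38 over the 9 and 0.18 over all genes tested. Fold changes are differences of log2(FPKM + 1), CKO minus flox control, which understate the change of low genes.

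The promoters of the 4 called genes are shown because Tnni3 and Tnni1 moved in opposite directions within 1 family, Tnni3 and Tnnt1 lie side by side and both fell, and Tpm2 changed most. Each run is the RefSeq window from 250 bases before to 50 after the annotated start, on build GRCm38.p6 and 5′ to 3′ on the gene's strand. Capitals mark matches on either strand to any of 6 motifs named below them, none of which overlap in these windows. The RefSeq table also holds a second Tnni1 start, whose window (chr1:135799261-135799560) overlaps the one shown, the first in the table.
Tnni3 (chr7:4522479-4522778, minus strand): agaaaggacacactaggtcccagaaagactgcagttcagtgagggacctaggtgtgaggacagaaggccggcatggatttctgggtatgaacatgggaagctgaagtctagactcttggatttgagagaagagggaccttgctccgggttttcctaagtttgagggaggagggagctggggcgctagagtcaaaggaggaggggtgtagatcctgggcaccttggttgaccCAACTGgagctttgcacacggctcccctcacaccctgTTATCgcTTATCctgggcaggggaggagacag
Tnni1 (chr1:135799171-135799470, plus strand): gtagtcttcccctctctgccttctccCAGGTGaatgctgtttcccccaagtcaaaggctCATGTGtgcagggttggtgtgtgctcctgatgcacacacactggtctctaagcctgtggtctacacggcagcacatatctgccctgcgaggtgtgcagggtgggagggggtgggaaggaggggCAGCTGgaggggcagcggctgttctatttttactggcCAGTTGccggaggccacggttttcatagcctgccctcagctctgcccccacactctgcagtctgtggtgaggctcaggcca
Tnnt1 (chr7:4515926-4516225, minus strand): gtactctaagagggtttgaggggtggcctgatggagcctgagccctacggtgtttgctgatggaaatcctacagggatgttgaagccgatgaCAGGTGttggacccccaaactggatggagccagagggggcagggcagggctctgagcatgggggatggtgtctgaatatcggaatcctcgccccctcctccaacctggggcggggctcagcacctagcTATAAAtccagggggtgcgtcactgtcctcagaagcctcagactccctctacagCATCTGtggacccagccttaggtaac
Tpm2 (chr4:43523505-43523804, minus strand): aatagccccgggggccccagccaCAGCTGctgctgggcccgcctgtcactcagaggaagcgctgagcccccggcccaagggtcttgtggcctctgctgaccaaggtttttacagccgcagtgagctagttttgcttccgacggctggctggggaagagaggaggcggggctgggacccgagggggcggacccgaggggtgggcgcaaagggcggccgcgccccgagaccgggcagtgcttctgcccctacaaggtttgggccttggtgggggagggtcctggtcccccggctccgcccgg

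All 4 windows held an E-box, spelled CANNTG and bound by muscle bHLH factors among others, a motif found in 72.3% of 32851 RefSeq promoters of this length. Tnni1 had 4 of them, Tnnt1 had 2, and Tnni3 and Tpm2 had 1 each. The window of the second Tnni1 start held 2 E-boxes, at a GC content of 58.7%. Tnni3 alone among the 4 matched the GATA motif, searched as GATAA, at +19 to +23 and +26 to +30 from the start, on the opposite strand, against 25.4% of all promoters with a match. Tnnt1 alone among the 4 matched the TATA box, searched as TATAAA, at -30 to -25, against 13.6% of all promoters. No window of the 4 held the MCAT motif, searched as CATTCC and present in 14.7% of promoters. Nor did any hold the CArG and MEF2 motifs, present in 1.63% and 3.19%. These were searched as fixed patterns with A or T in the middle, and near matches were not counted. The GC content was 70.3% for Tpm2, 59.7% for Tnni1, 58.3% for Tnnt1 and 55.0% for Tnni3, beside a median of 52.7%. These matches describe letters in a window and not bound factors.

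Troponin I showed a lower cardiac and a higher fetal gene in CKO hearts. Tnni3 (ENSMUSG00000035458, chr7:4518305-4524229; gene bounds are on GRCm38.p6 throughout) encodes cardiac troponin I, the inhibitory subunit, and measured 797, 752 and 918 FPKM in CKO hearts, against 1378, 1380.3 and 1314 FPKM in flox controls. Every CKO library lay below every flox control, and the controls lay within a narrow band. The means were 823 ± 85.9 FPKM in CKO and 1357 ± 37.4 FPKM in flox control hearts (SD, n = 3 each), with a log2 fold change of -0.73 (SE 0.15, limma adjusted p = 0.0314). The call was lost without CKO 1 (0.0716), CKO 2 (0.069), flox control 1 (0.125), flox control 2 (0.0879) or flox control 3 (0.101), and without the filter on low values (0.218). Its direction held in all 18 alternatives.

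Tnni1 (ENSMUSG00000026418, chr1:135779434-135810989) measured 13, 33.8 and 15.3 FPKM in CKO hearts, against 1.33, 2.06 and 7.64 FPKM in flox controls. The groups did not overlap, but both were spread: CKO 2 was the highest CKO library, and flox control 3 stood above the other 2 controls. The reads behind these values were 840, 2369 and 1000 in CKO and 81, 130 and 548 in flox control libraries. The log2 fold change was 2.34 (SE 0.55, limma adjusted p = 0.0424). Tnni1 lost its call without CKO 2 (0.105), CKO 3 (0.0900), flox control 1 (0.131) or flox control 2 (0.123), and without the filter (0.101).

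As a share of the FPKM of Tnni1 and Tnni3 together, Tnni1 made up 1.6%, 4.3% and 1.64% in CKO hearts, against 0.0965%, 0.149% and 0.578% in flox controls. The mean share was 2.52% ± 1.55 in CKO and 0.274% ± 0.264 in flox control hearts (SD, n = 3 each; exact permutation p = 0.1, 2-sided, 0.15 after adjustment over 6 shares). With 3 libraries against 3 there are 20 arrangements, and 0.1 is the smallest p they allow, so no share could pass 0.05. The difference of 2.24 percentage points was 1.35 points without CKO 2. Tnni3 made up 95.7% to 98.4% of troponin I FPKM in CKO hearts, against 99.4% to 99.9% in flox controls. In absolute terms the mean of Tnni1 was 17.0 FPKM higher in CKO hearts (SE 6.88) while that of Tnni3 fell by 535 FPKM (SE 54.1), so the summed troponin I level was 810.3, 786 and 934 FPKM in CKO, against 1379, 1382 and 1322 FPKM in flox control hearts. Tnni2, the fast skeletal gene, measured 0.223, 0.446 and 0.332 FPKM in CKO hearts, against 1.46, 1.45 and 0.771 FPKM in flox controls, under the filter and so not tested in the main comparison. It was tested in 2 alternatives, with a limma adjusted p of 0.0497 after rescaling to TPM and 0.0788 without the filter.

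**Figure D1:**
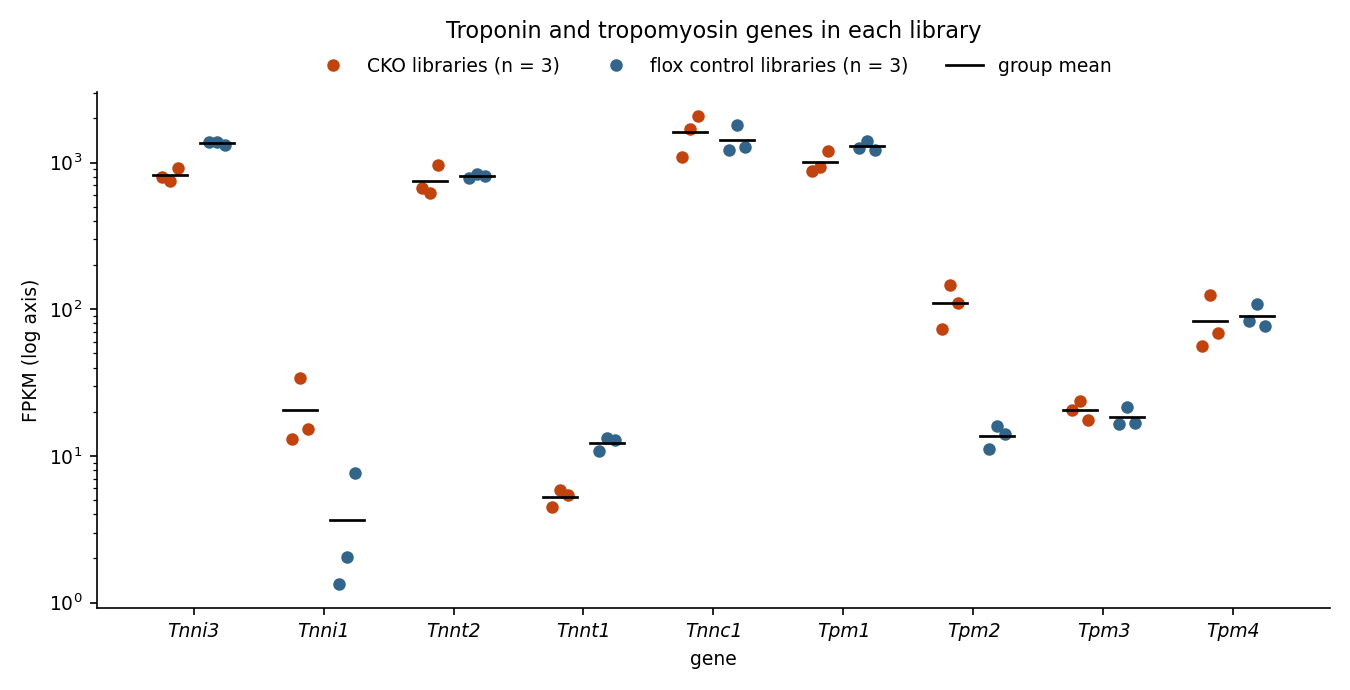
FPKM of the 9 genes in every library on a log axis, CKO libraries left of flox controls for each gene, with a line at each group mean. The 3 CKO points lie above the 3 flox control points for Tnni1 and Tpm2 and below them for Tnni3, Tnnt1 and Tpm1, and the groups overlap for Tnnt2, Tnnc1, Tpm3 and Tpm4.

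Troponin T differed in its minor gene. Tnnt1 (ENSMUSG00000064179, chr7:4504570-4516382), the slow skeletal troponin T gene, measured 4.50, 5.83 and 5.41 FPKM in CKO hearts, against 10.8, 13.3 and 12.8 FPKM in flox controls. The groups were far apart relative to their spread, although the level is low, with 178 to 250 reads in CKO and 404 to 563 reads in flox control libraries. The log2 fold change was -1.09 (SE 0.12, limma adjusted p = 0.00607), and the call held in all 18 alternatives, with adjusted p between 0.00496 and 0.0299. Tnni1 and Tnnt1, both genes of slow skeletal muscle, moved in opposite directions.

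Tnnt2 (ENSMUSG00000026414, chr1:135836354-135852260), the cardiac gene that anchors the complex to tropomyosin, measured 666, 617 and 956 FPKM in CKO hearts, against 790.5, 834 and 815 FPKM in flox controls. CKO 1 and CKO 2 lay below all controls and CKO 3 above them. The log2 fold change was -0.15 with a 95% interval from -0.62 to 0.32 (limma adjusted p = 0.678). The CKO values had a coefficient of variation of 24.6%, against 2.70% in flox controls.

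Tnnt1 made up 0.672%, 0.936% and 0.562% of troponin T FPKM in CKO hearts, against 1.35%, 1.57% and 1.55% in flox controls. This share was lower in each CKO library than in any control (exact permutation p = 0.1, 2-sided, adjusted 0.15). Summed troponin T was 670.2, 623 and 962 FPKM in CKO hearts, against 801, 848 and 828 FPKM in flox controls, and these sums overlapped. The fast skeletal gene Tnnt3 stayed between 0.390 and 0.802 FPKM in CKO and between 0.336 and 0.792 FPKM in flox control libraries.

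Troponin C, the calcium sensor, came from a single gene here. Tnnc1 (ENSMUSG00000091898, chr14:31208312-31211729) measured 1085, 1694 and 2081 FPKM in CKO hearts, against 1209.7, 1795 and 1279 FPKM in flox controls. The groups overlapped throughout, with a log2 fold change of 0.15 and a 95% interval from -0.55 to 0.85 (limma adjusted p = 0.781). Without CKO 3 the log2 fold change was -0.05, so no direction can be given. The fast skeletal gene Tnnc2 had 1 read in CKO 3 and 0 in the other libraries.

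Tropomyosin differed most in Tpm2. Tpm2 (ENSMUSG00000028464, chr4:43514711-43523765), which encodes beta-tropomyosin of skeletal and smooth muscle, measured 73.2, 146 and 110.2 FPKM in CKO hearts, against 11.1, 15.9 and 14.2 FPKM in flox controls. The lowest CKO library was several times the highest control. The means were 109.7 ± 36.3 FPKM in CKO and 13.7 ± 2.45 FPKM in flox control hearts (SD, n = 3 each), with a log2 fold change of 2.87 (SE 0.26, limma adjusted p = 0.00414). The call held in all 18 alternatives, with adjusted p between 0.00180 and 0.0270.

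Tpm1 (ENSMUSG00000032366, chr9:67022590-67049406), the alpha-tropomyosin gene, measured 880.0, 927 and 1196 FPKM in CKO hearts, against 1256, 1402 and 1226 FPKM in flox controls. Each CKO value was below each control, CKO 3 by a small margin. The log2 fold change of -0.38 (95% interval -0.81 to 0.05) did not pass the test (limma adjusted p = 0.225), nor did it in any of the 18 alternatives.

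Tpm3 (ENSMUSG00000027940, chr3:90072649-90100902), a gene of slow skeletal and non-muscle tropomyosins, measured 20.5, 23.8 and 17.5 FPKM in CKO hearts, against 16.6, 21.7 and 16.8 FPKM in flox controls. Tpm4 (ENSMUSG00000031799, chr8:72134975-72153142), a non-muscle tropomyosin gene, measured 56.2, 125 and 69.1 FPKM in CKO hearts, against 83.1, 109 and 77.0 FPKM in flox controls. Both overlapped between the groups, with log2 fold changes of 0.15 for Tpm3 (95% interval -0.20 to 0.51, limma adjusted p = 0.564) and -0.17 for Tpm4 (-0.89 to 0.55, 0.757). For Tpm4 the sign turned to 0.06 without CKO 1. CKO 2 held the highest Tpm2, Tpm3, Tpm4 and Tnni1 values of the CKO libraries.

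Within the tropomyosin family, Tpm2 made up 7.10%, 11.9% and 7.91% of FPKM in CKO hearts, against 0.811%, 1.03% and 1.06% in flox controls. Tpm1 made up 85.4%, 75.9% and 85.9% in CKO hearts, against 91.9%, 90.5% and 91.9% in flox controls. For both shares the groups did not overlap, with an exact permutation p of 0.1 (2-sided, adjusted 0.15), and the mean share was 8.01 percentage points higher in CKO hearts for Tpm2, and the difference for Tpm1 was -9.03 points, or -5.78 points without CKO 2. The Tpm3 share was 1.99%, 1.95% and 1.26% in CKO hearts, against 1.22%, 1.4% and 1.26% in flox controls (exact permutation p = 0.3, adjusted 0.36), and its difference of 0.438 points was 0.674 points without CKO 3. The Tpm4 share was 5.46%, 10.2% and 4.96% in CKO hearts, against 6.08%, 7.06% and 5.77% in flox controls (exact permutation p = 1). In FPKM, the mean of Tpm2 was 95.9 higher in CKO hearts (SE 21.0), the difference for Tpm1, which was not called, was -294 (SE 112), and summed tropomyosin was 1029.8, 1221 and 1393 FPKM in CKO, against 1367, 1549 and 1334 FPKM in flox control hearts.

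**Figure D2:**
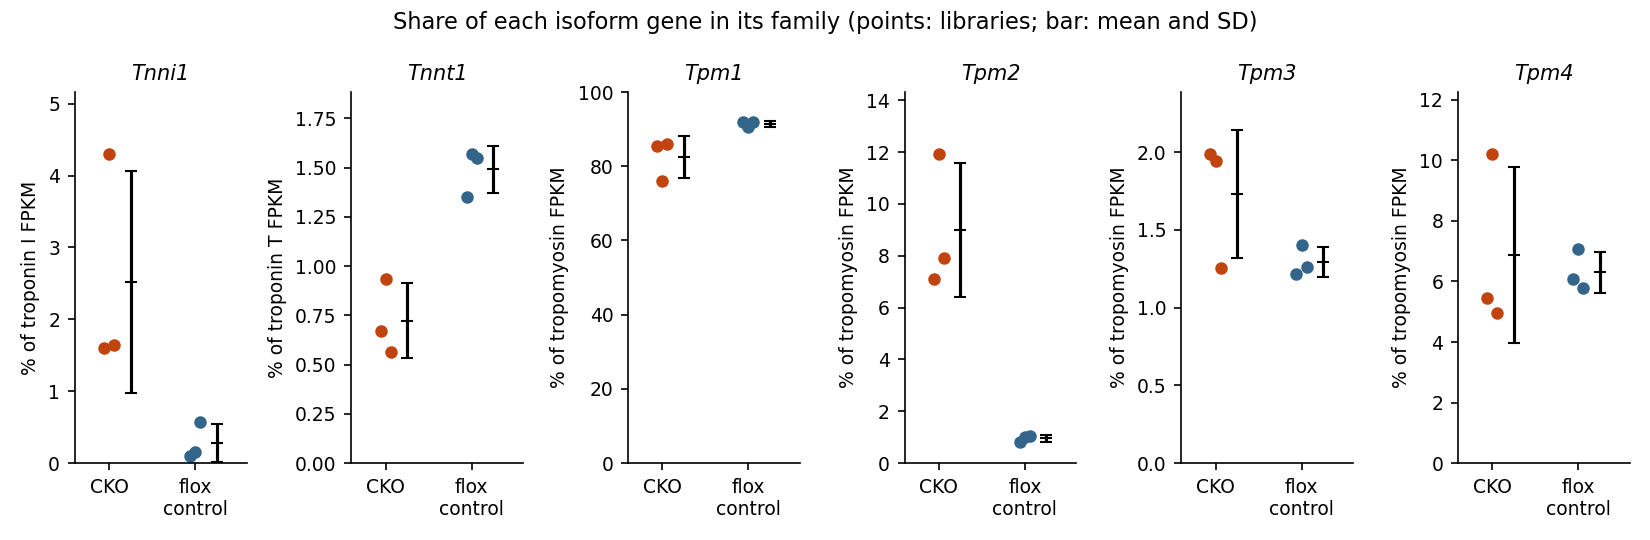
Share of each gene in the summed FPKM of its family, in percent, for each CKO (left) and flox control (right) library, with the mean and SD beside the points; the scales differ between panels and all start at 0. The CKO points lie above the flox control points for Tnni1 and Tpm2, below them for Tnnt1 and Tpm1, and overlap them for Tpm3 and Tpm4.

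These shares depend on the length by which reads are divided. The deposited gene length equals the union of all annotated exons for all 9 genes, and exceeds the principal transcript 6.46 times for Tnnt2, 3.42 times for Tpm1 and 3.13 times for Tnni1 but only 1.39 times for Tpm2. With principal transcript lengths, chosen after the data were seen, the mean shares became 4.11% in CKO and 0.414% in flox control hearts for Tpm2, 92.0% in CKO and 96.5% in flox control hearts for Tpm1, 3.44% in CKO and 0.379% in flox control hearts for Tnni1, and 0.241% in CKO and 0.5% in flox control hearts for Tnnt1. Each shift kept its direction and its separation between the groups.

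The order of levels between genes rests on the same choice. By deposited FPKM the CKO order was Tnnc1, Tpm1, Tnni3, Tnnt2, Tpm2, Tpm4, Tnni1, Tpm3 and Tnnt1, and the flox control order was Tnnc1, Tnni3, Tpm1, Tnnt2, Tpm4, Tpm3, Tpm2, Tnnt1 and Tnni1. In CKO hearts the ranges of neighbours in that order overlapped from Tnnc1 down to Tnnt2, between Tpm2 and Tpm4 and between Tnni1 and Tpm3. In flox controls those of Tnnc1, Tnni3 and Tpm1 overlapped from one to the next, and so did those of Tpm2 and Tnnt1. Tpm2 stood above Tpm4 and Tpm3 in CKO hearts and below both in flox controls. Per base of principal transcript, Tnnt2 and Tpm1 led in both groups.

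**Figure D3:**
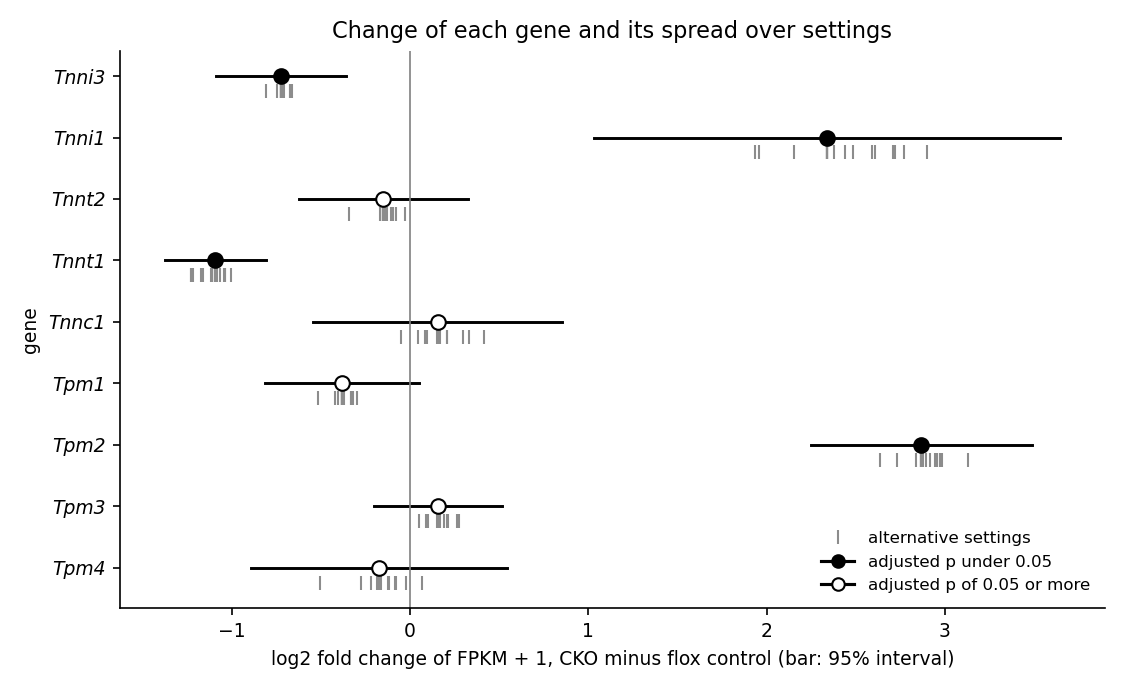
Log2 fold change of each gene, CKO minus flox control on the log2(FPKM + 1) scale, with its 95% interval, filled where the limma adjusted p was under 0.05, and grey marks for the values under the 18 alternatives. Tpm2 at 2.87 and Tnni1 at 2.34 lie right of 0 and Tnni3 at -0.73 and Tnnt1 at -1.09 left of it, while the grey marks cross 0 for Tnnc1 and Tpm4.

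The families moved apart relative to troponin I, with which the other subunits combine in a fixed proportion. Summed troponin T over summed troponin I was 0.827, 0.792 and 1.03 in CKO hearts, against 0.581, 0.613 and 0.626 in flox controls. Troponin C over troponin I was 1.34, 2.15 and 2.23 in CKO hearts, against 0.877, 1.3 and 0.967 in flox controls. Tropomyosin over troponin I was 1.27, 1.55 and 1.49 in CKO hearts, against 0.991, 1.12 and 1.01 in flox controls. In all 3 ratios every CKO library was above every control. All 3 share the troponin I values as denominator, which were lower in CKO hearts, and no test was run on them.

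**Figure D4:**
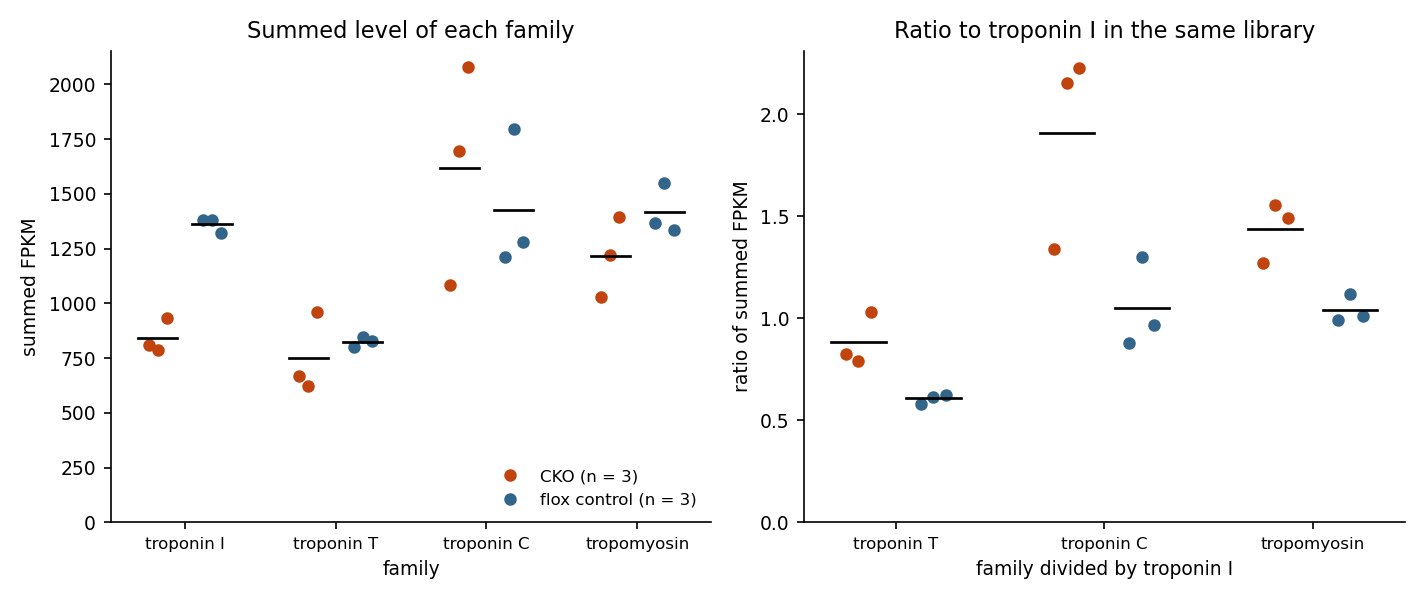
Summed FPKM of each family (left) and its ratio to troponin I in the same library (right), CKO points left of flox control points, lines at group means. Summed troponin I separates the groups, at 786 to 934 FPKM in CKO and 1322 to 1382 FPKM in flox control libraries, the other 3 sums overlap, and the 3 ratios do not.

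By position, Tnnt1 and Tnni3 lie 1922 bases apart on the same strand of chromosome 7, and both fell. Dnaaf3, a dynein arm assembly gene next to Tnni3 on that strand, shares 86 exon bases with it (4.17% of the Tnni3 exons) and measured 2.58, 0.924 and 0.695 FPKM in CKO hearts, against 5.08, 3.66 and 5.19 FPKM in flox controls (log2 fold change -1.3, limma adjusted p = 0.0355). Its call held in 11 of 17 alternatives. The settings that lost it included those without CKO 2 (0.1), CKO 3 (0.0900), flox control 1 (0.125), 2 (0.0727) or 3 (0.112). Dnaaf3 was read because of its overlap with Tnni3, whose reads outnumbered its own by far, at 29513 to 54044 against 28 to 230 per library. Tnni1 and Tnnt2 lie 25364 bases apart on the same strand of chromosome 1, where Tnni1 rose and Tnnt2 did not pass the test. Without strand information, reads cannot be told apart where exons of opposite-strand genes coincide. Such genes lie across Tnnc1 and Tpm4 by their bounds, and the overlap of their exons was not measured. Across Tnnc1 lies Nisch, at 25.6 to 30.5 FPKM in CKO and 26.1 to 26.4 FPKM in flox control libraries. Across Tpm4 lies Gm16091, at 1.15 to 1.55 FPKM in CKO and 1.41 to 2.52 FPKM in flox control libraries. Gm26586 also lies there, at 0 to 0.177 FPKM in CKO and 0.0678 to 0.228 FPKM in flox control libraries.

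No 2 of the 9 genes of a family shared a run of bases as long as the 150 bases read from each fragment end. The coding sequences of Tnni3 and Tnni1 were 69.9% identical with a longest shared run of 21 bases, those of Tnnt2 and Tnnt1 were 71.7% identical with a run of 15 bases, and the tropomyosin pairs were 74.0% to 77.5% identical. An exception is Tpm3 and its retrogene Tpm3-rs7, which shared 94.5% of bases and a run of 623, so the split of their reads is uncertain. Tpm3-rs7 measured 5.17, 6.20 and 4.88 FPKM in CKO hearts, against 4.93, 4.16 and 4.07 FPKM in flox controls (limma adjusted p = 0.204). The letters GGACT, one form of the consensus at which m6A is placed, occurred in the principal transcripts at 2.19 per kilobase in Tnni3, 1.74 in Tnni1, 0.477 in Tpm2 and 0 in Tnnt1, beside a median of 1.06 over 10836 tested genes. The 4 calls fell on genes above and below that median, and m6A itself was not measured.

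Among 21 other thin filament genes, 17 were tested, 2 rose, 1 fell and 14 did not pass, where 11.2% of all genes tested passed. The median log2 fold change of the list was 0.08 beside 0.01 over all genes tested. Acta1, skeletal actin, measured 516, 1538 and 3807 FPKM in CKO hearts, against 36.0, 198 and 41.3 FPKM in flox controls (log2 fold change 4.42, limma adjusted p = 0.0279). Cfl2, the muscle cofilin that severs actin filaments, averaged 122 ± 14.2 FPKM in CKO and 82.7 ± 6.02 FPKM in flox control hearts (0.55, 0.0401), and Nebl, the cardiac nebulin relative at the Z-disc, 15.1 ± 1.49 FPKM in CKO and 21.1 ± 1.3 FPKM in flox control hearts (-0.46, 0.0364; SD, n = 3 each). The list had no call without CKO 3, flox control 1 or flox control 3, where limma adjusted p was 0.0679 to 0.105 for Acta1, 0.0900 to 0.134 for Cfl2 and 0.103 to 0.134 for Nebl. Without CKO 2 Acta1 (0.0784) and Cfl2 (0.0772) lost their calls, without flox control 2 Cfl2 (0.0788) and Nebl (0.0744), and without CKO 1 Nebl (0.0688). Nebl also lost it after rescaling to TPM (0.235) or to the same sum, over all genes tested (0.225) or without mitochondrially encoded genes (0.0871). Without the filter on low values the list had no call either, at 0.0707 for Acta1, 0.0678 for Cfl2 and 0.0601 for Nebl.

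All 17 thick filament genes were tested, 1 rose, 2 fell and 14 did not pass, where 11.2% of all genes tested passed. The median log2 fold change of the list was -0.27. Myom2, an M-band protein, averaged 212 ± 53.2 FPKM in CKO and 94.6 ± 24.8 FPKM in flox control hearts (log2 fold change 1.16, limma adjusted p = 0.0361). Myh7b, a slow myosin heavy chain relative, averaged 13.4 ± 1.32 FPKM in CKO and 20.9 ± 2.53 FPKM in flox control hearts (-0.60, 0.0286). The myosin chaperone gene Unc45b averaged 37.3 ± 0.527 FPKM in CKO and 49.5 ± 1.86 FPKM in flox control hearts (-0.40, 0.0333; SD, n = 3 each). The list again had no call without CKO 3, flox control 1 or flox control 3, with adjusted p of 0.0592 to 0.112 for Myom2, 0.0518 to 0.0975 for Myh7b and 0.0857 to 0.122 for Unc45b. Without CKO 1 Myom2 (0.0659) and Unc45b (0.0634) lost their calls, without CKO 2 Myh7b (0.0605) and Unc45b (0.0716), and without flox control 2 all 3, at 0.104 for Myom2, 0.0850 for Myh7b and 0.0728 for Unc45b. Both falls were lost after rescaling to TPM, at 0.140 for Myh7b and 0.240 for Unc45b, and to the same sum over the genes tested, at 0.128 for Myh7b and 0.238 for Unc45b, or without mitochondrially encoded genes, at 0.0525 for Myh7b and 0.0802 for Unc45b. Without the filter Myom2 (0.0822) and Myh7b (0.0562) did not pass.

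Of 12 kinases and phosphatases known to act on troponin I, troponin T or tropomyosin, 9 were tested, 1 rose and 8 did not pass. That count is near the 11.2% called over all genes tested. Prkcd, protein kinase C delta, which phosphorylates cardiac troponin I, measured 9.91, 8.12 and 8.62 FPKM in CKO hearts, against 3.36, 3.56 and 3.83 FPKM in flox controls. Its log2 fold change was 1.11 (SE 0.10, limma adjusted p = 0.00413), and the call held in all 18 alternatives. Of 14 factors known to splice troponin T or tropomyosin transcripts, 13 were tested and 0 passed in limma. Their median log2 fold change was -0.05. The groups did not overlap in their summed FPKM, where 34.3% of all genes tested did not overlap. The sums were 266 to 276 in CKO and 299 to 307 in flox control libraries. Rbm24, the highest of these factors and so a large part of the sums, averaged 60.4 FPKM in CKO and 80.8 FPKM in flox control hearts (limma adjusted p = 0.0982). Celf1, Celf2, Rbfox2, Ptbp1 and Ptbp2 averaged higher in CKO hearts and the other tested factors lower. Esrp1 was listed at 0 throughout. Rbfox1, a muscle and neuronal splicing regulator, came nearest, with 3.28, 1.17 and 1.67 FPKM in CKO hearts, against 6.37, 3.78 and 5.83 FPKM in flox controls (log2 fold change -1.09, limma adjusted p = 0.0536), and passed in 5 of 17 alternatives, among them without CKO 1 (0.0138).

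Markers of other cells that express these genes were read beside them. Their counts of calls stand beside 11.2% of all genes tested, 5.69% higher and 5.49% lower in CKO hearts. The 10 skeletal muscle markers, all genes of fast fibres, were all under the filter, with summed FPKM of 1.36 to 2.54 in CKO and 2.46 to 3.17 in flox control libraries; of the fast myosin genes, Myh1 was above 0 in 1 library, Myh2 in 1 and Myh4 in 1. A part of slow skeletal tissue in the Tnni1 result was not tested. Of 8 smooth muscle and pericyte markers 7 were tested, 0 rose and 1 fell (Smtn, log2 fold change -0.81, limma adjusted p = 0.0159, lost without CKO 3 at 0.0537, flox control 1 at 0.0684 or flox control 3 at 0.0622), and their summed FPKM was 384 to 554 in CKO and 457 to 810.2 in flox control libraries. Of 8 fibroblast markers 1 rose (Tcf21, log2 fold change 1.28, limma adjusted p = 0.0147, lost without CKO 3 at 0.0517, flox control 1 at 0.0633 or flox control 2 at 0.0555). The median log2 fold change of the fibroblast list was 0.41, beside 0.01 over all genes tested, and its sums, which overlapped, were 627 to 946 FPKM in CKO and 511 to 660.2 FPKM in flox control libraries.

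Among the fibroblast markers, 3 matrix genes are given because their CKO libraries were ordered as for Tpm2, a choice made after their values were seen. Postn, periostin, measured 51.5, 157 and 81.3 FPKM in CKO hearts, against 34.8, 47.3 and 45.6 FPKM in flox controls (limma adjusted p = 0.138). Col1a1, a chain of type I collagen, measured 153, 269.9 and 161 FPKM in CKO hearts, against 106, 113 and 145 FPKM in flox controls (0.148). Col1a2, its partner chain, measured 76.4, 136 and 91.1 FPKM in CKO hearts, against 48.2, 60.3 and 72.4 FPKM in flox controls (0.114). None of the 3 passed the test. In none did the groups overlap, where 34.3% of all genes tested did not overlap. CKO 2 was the highest library and CKO 1 the lowest of the CKO libraries in each, as in Tpm2, the order by which they were picked. That order of the CKO libraries was not particular to matrix genes. The endothelial markers Pecam1, Cdh5, Kdr and Tie1 had it, and Emcn and Egfl7 did not. Of the smooth muscle and pericyte markers, Cnn1, Myh11, Tagln and Pdgfrb had it, and Acta2, Smtn, Lmod1 and Rgs5 did not. Lum and Dcn, of the fibroblast list, were ordered otherwise, with CKO 1 highest of the CKO libraries. Lum measured 70.1, 37.5 and 42.0 FPKM in CKO hearts, against 48.2, 51.8 and 76.0 FPKM in flox controls. Dcn measured 117, 63.1 and 71.7 FPKM in CKO hearts, against 80.7, 73.8 and 95.2 FPKM in flox controls. Lum, Dcn and Col3a1 overlapped between the groups.

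Of 6 atrial markers 1 rose (Nppa) and 1 fell (Sln), where 11.2% of all genes tested passed, and the list's median log2 fold change was -1.61. Their summed FPKM, which holds Nppa, did not overlap, at 572 to 2122 in CKO and 159 to 420.5 in flox control libraries. The atrial myosin light chain genes did not pass the test: Myl4 measured 4.54, 4.72 and 1.93 FPKM in CKO hearts, against 24.8, 7.40 and 31.6 FPKM in flox controls (log2 fold change -2.08, limma adjusted p = 0.0534). Myl7 measured 39.2, 24.1 and 40.7 FPKM in CKO hearts, against 154, 56.6 and 244 FPKM in flox controls (-1.90, 0.0631). In both, every CKO library lay below every control, where 34.3% of all genes tested did not overlap. Dkk3, of the same list, averaged higher in CKO hearts (log2 fold change 0.78, limma adjusted p = 0.168). Bmp10, also of this list, averaged lower (-1.33, 0.434). Neither Dkk3 nor Bmp10 passed the test, and both overlapped between the groups. Of 6 endothelial markers 0 rose and 1 fell (Tie1), with sums of 221 to 293 FPKM in CKO and 296 to 301 FPKM in flox control libraries that did not overlap, and of 6 macrophage markers 0 passed in limma, with overlapping sums. The highest limma adjusted p over the alternatives was 0.0691 for Nppa, 0.143 for Sln and 0.176 for Tie1, so each of these calls was lost under some of them. No marker of these lists was at 0 in all libraries. The part of such cells in the Tpm2 rise, and of atrial tissue in any result, was not tested.

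Over the 6 libraries, the genes whose log2(FPKM + 1) followed each called member most closely, among 3890 or 3891 genes averaging at least 10 FPKM, were found by Pearson's r as a description; the libraries fall into 2 groups, which alone gives high values. Bgn (0.996), Adamts2 (0.996) and Cilp (0.992), all genes of extracellular matrix proteins, came nearest to Tpm2. Bgn measured 109, 165 and 148 FPKM in CKO hearts, against 50.3, 62.3 and 58.4 FPKM in flox controls, with CKO 1 lowest of its group as for Tpm2. Nearest to Tnni3 were 1500011K16Rik (0.998), Atad1 (0.996) and Lynx1 (0.995), nearest to Tnnt1 were Ppdpf (0.996), Uqcc1 (0.994) and Pald1 (0.993), and nearest to Tnni1 were Glyr1 (0.986), Rmnd5b (0.983) and Gpr153 (0.978). In Gpr153, as in Tnni1, flox control 3 was the highest control, with 13.1, 17.1 and 13.6 FPKM in CKO hearts, against 9.05, 9.29 and 13.4 FPKM in flox controls.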

How the data were processed

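Per the labels' protocols, polyadenylated RNA was primed with random hexamers, the selected fragments were 370 to 420 bp long and reads were paired, 150 bases each. No strand-marking step is given. The authors deposited FPKM values for 54532 genes, 1 column per library, and per the submitters' processing notes used the build GRCm38.p6, the aligner HISAT2 2.0.5, the counter featureCounts 1.5.0-p3 and also DESeq2 1.20.0, in steps not given in the sources used here. Multiplied by gene length and 1 factor per library, 100% of the FPKM values gave whole reads, within 0.001 of a read, from which the 17434296 to 19360428 reads per library were recovered.

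Libraries were grouped by title. The 12144 genes averaging 1 FPKM or more entered a limma-trend fit (limma 3.58.1, R 4.3.3) of log2(FPKM + 1) on genotype alone, with Benjamini-Hochberg adjustment over all genes tested, 2-sided at 0.05. The fit was also run on reads simulated with the same spread beyond counting error for every gene. That run does not cover genes of larger spread, such as Tnni1. Shares of family FPKM were compared by exact permutation tests over 20 arrangements (scipy 1.17.1). The members and gene lists were chosen with earlier results of these data known. Genes named are the 9 members, Ythdc1, the fast skeletal troponins, the genes with the smallest adjusted p of each list (up to 3 called, otherwise 1) and the 3 genes closest to each called member. Dnaaf3, Tpm3-rs7, Nisch, Gm16091, Gm26586 and marker genes were named after their values were seen. The alternatives were pseudocounts of 0.1 and 0.01, no filter or one at an average of 5 FPKM, 3 scalings, 3 ways to model the variance, voom on the recovered reads (1427 genes called), the replicate block and each library left out. Transcript lengths and overlaps came from GENCODE M21, where all 9 members had the same ID and bounds, and promoters from RefSeq on GRCm38.p6, where all 9 matched. Read counts cover counting error only.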

Additional observations from a re-analysis of the deposited data

How the results depend on the processing

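Tpm2 and Tnnt1 kept their direction and their call, and Tnni3 and Tnni1 their direction, in all 18 alternatives. Without the filter on low values 2 of 9 members and 798 of 27031 genes were called, in place of 4 of 9 and 1358 of 12144. Leaving out 1 library at a time gave 2 to 3 called members and 315 to 1490 called genes: 715 without CKO 2, 579 without CKO 3, 315 without flox control 1, 602 without flox control 2 and 472 without flox control 3. These fits have fewer libraries. In the same fits the log2 fold change ranged from -0.052 to 0.42 for Tnnc1 and from -0.50 to 0.064 for Tpm4, neither called, and the difference in Tpm4 share from -1.09 to 1.54 percentage points, negative without CKO 2. The other 5 shares and the 3 family ratios kept their direction in all alternatives run. Replicate numbers 1, 2 and 3 occur in both groups, but deviations of same-numbered libraries correlated at 0.139, 0.060 and -0.005, and CKO 2 correlated best with flox control 3, so the numbers were not taken as pairs. With the replicate block 715 genes and 2 of 9 members were called: Tpm2 (limma adjusted p = 0.008) and Tnnt1 (0.018) passed, while Tnni1 (0.062) and Tnni3 (0.132) did not. Calls of Ythdc1 (0.0542), Cfl2 (0.119), Nebl (0.104), Myh7b (0.0715) and Unc45b (0.116) were also lost with the block. Within the block, no share could go below an exact p of 0.25. Low read numbers limit Tnnt1 and, in flox controls, Tnni1.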
